A study of Homo sapiens with 18 samples.

Results

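The peroxisome proliferator-activated receptors PPARG, PPARA and PPARD and the retinoid X receptors RXRA, RXRB and RXRG were followed through every scan of a microarray washing experiment. Their members were all probe sets whose only gene symbol in the platform annotation was one of these 6, which gave 20 of 54675 probe sets. PPARA has 9 of them, PPARD 4, RXRB 3, RXRA 2, and PPARG and RXRG 1 each. No probe set that lists a receptor symbol beside another gene was found (0), and all 6 gene identifiers were found in the RefSeq table without a change of symbol. Of the 20 probe set names, 6 end in _s_at, which on this array type marks probes that can bind several transcripts, and 1 ends in _a_at, for alternative transcripts of 1 gene. A signal of these 7 may hold more than 1 transcript.

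PPARs and RXRs are nuclear receptors, proteins that bind DNA and switch target genes when a small lipophilic ligand sits in their pocket. A PPAR works as a heterodimer with an RXR, and the pair binds response elements near genes of fatty acid uptake, storage and oxidation. RXRs are the shared partner of many other nuclear receptors, among them the retinoic acid, vitamin D and thyroid hormone receptors. In the thyroid PPARG is known from a fusion with PAX8 that a share of follicular carcinomas carries, and whether this line carries it was not measured here.

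All signals come from 1 RNA sample of untreated FTC-133 cells, a human line from a follicular thyroid carcinoma, hybridized in aliquots to 3 HG-U133 Plus 2.0 arrays. Array A was stained without stringent washing and scanned after 0, 2, 7 and 17 cycles as A1 to A4. Before its staining array B had 2 stringent cycles, and it was scanned after a total of 2, 4, 9 and 19 cycles (B1 to B4), and array C for 6 cycles before a single scan (C1). A second staining opened a second series, with scans at a total of 17, 19, 24 and 34 cycles on array A (A5 to A8), 21, 23, 28 and 38 on array B (B5 to B8) and 12 on array C (C2). Steps are named below by the 0, 2, 7 or 17 additional cycles that followed the staining of their series. The cells of all groups are the same, so that every difference is one between arrays, washing steps or stainings, and p-values measure technical spread only.

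Each value is a MAS5 signal, 1 number per probe set and scan on a linear scale without units. The scans had been scaled to a common trimmed mean of 250.02 to 250.06, while the median signal stayed between 86.3 and 136.2 on array A, 52.74 and 63.82 on array B and 51 and 58.49 on array C. Changes are therefore given as relative signals, the log2 signal minus the log2 median of the scan, and the signals as deposited are given beside them where the 2 scales differ in direction. The signal of a probe set depends on its probes as well as on its transcript, so that an order of signals among probe sets is one of brightness and not of transcript amounts. Detection calls were not used, and a low signal does not show that a transcript was missing. Of 7 measured thyroid markers, the transcription factors PAX8 and NKX2-1 had signals of 727.9 to 1310 and 533.1 to 926.3 over the 18 scans, HHEX 71.12 to 419.5 and FOXE1 3.592 to 139.3. The genes of hormone production, thyroglobulin (TG), SLC5A5 and the TSH receptor (TSHR), had 12.14 to 365.3, 63.45 to 295.5 and 4.569 to 56.38. On scan C1 the lists of other cells had signals from 3.141 (PLIN1) to 160.6 (CIDEC) for adipocytes, from 6.549 (FGB) to 52.44 (APOA1) for hepatocytes and from 1.415 (PTPRC) to 71.15 (CSF1R) for myeloid cells. The fibroblast list ran from 42.51 (DCN) to 4322 (THY1), with 3 of its 6 genes (THY1, COL3A1 and COL1A1) at 346.9 or more and the other 3 at 54.21 or less. The 5 epithelial markers had a median of 214.3 on C1. A single scan is not the range given for the thyroid markers. Over the 18 scans PLIN1 had 3.141 to 56.43 and ADIPOQ, also of the adipocyte list, 10.07 to 166.6, both lowest on C1.

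Of the 20 receptor probe sets 7 lay above the median of the scan on all 18 scans, 2 lay below it on all, and 11 were found on both sides. The same counts over all probe sets were not made. None of them (0) was among the brightest 10% of probe sets on scan C1 and 6 were among the brightest 25%. The map of relative signals shows the brightest probe sets of PPARA, PPARD, RXRA and RXRB above the median on all 18 scans. PPARG was above it on 17, with -0.16 on scan A5, and RXRG was below it throughout.

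**Figure D1:**
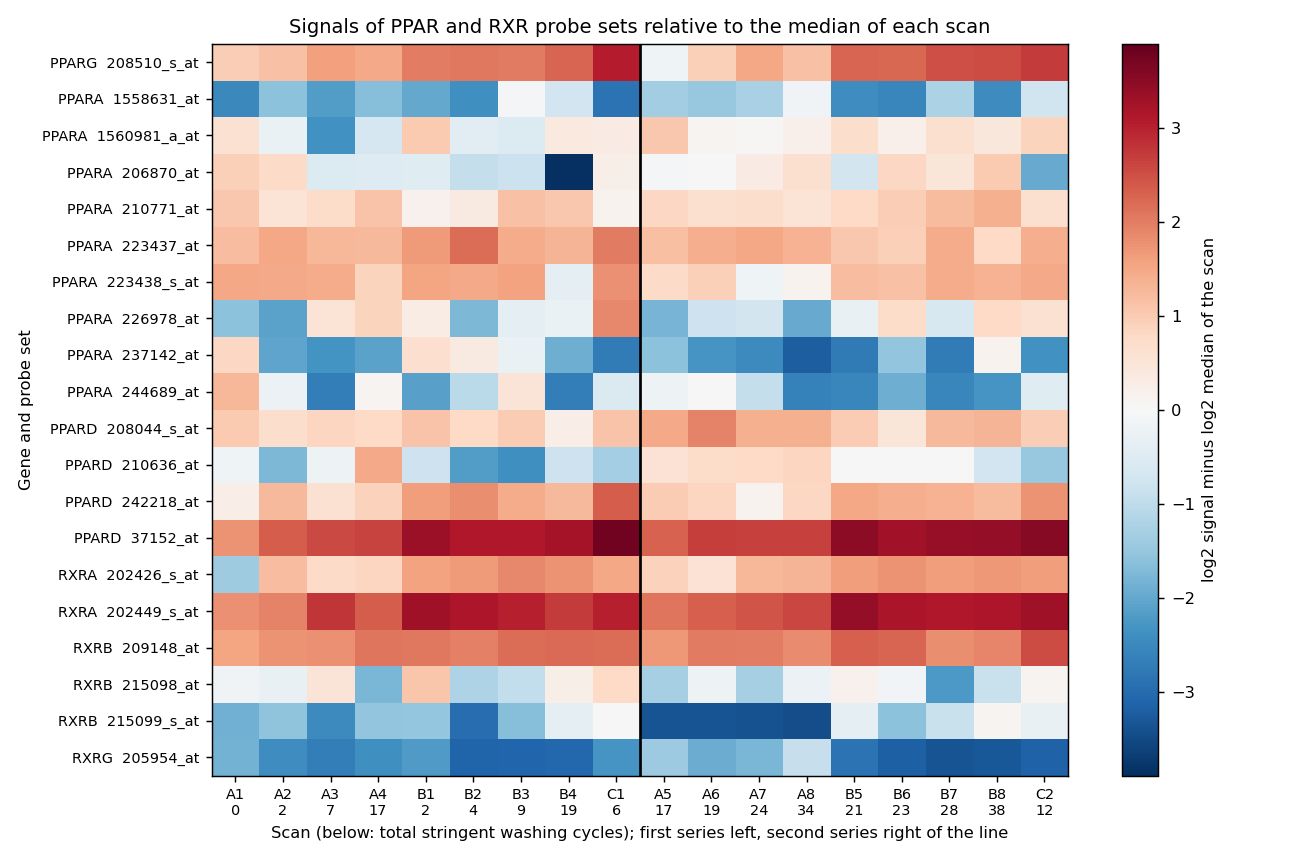
Relative signal of the 20 receptor probe sets (vertical axis) on each of the 18 scans (horizontal axis, with the total of stringent cycles), as log2 signal minus log2 median of the scan, first series left and second series right of the line. PPARD 37152_at and RXRA 202449_s_at are red on all 18 scans and RXRG 205954_at is blue on all 18.

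PPARG, the receptor that drives fat cell formation and lipid storage, is measured by 208510_s_at alone. Its signals as deposited were 265.7, 233.1, 277.9 and 238.5 on scans A1 to A4 and 255.0, 251.7, 233.2 and 256.1 on B1 to B4. In the second series they were 99.74, 177.1, 251.0 and 196.9 on A5 to A8 and 301.6, 281.9, 298.6 and 310.1 on B5 to B8. Array C gave 425.0 and 384.1, the 2 highest of all, and the lowest value was the first scan of array A after the second staining, 4.26-fold below the highest. Relative to the median of the scan, PPARG stood at 1.07 ± 0.56 (SD, n = 8 scans) on array A, at 2.23 ± 0.21 (SD, n = 8) on array B and at 2.89 ± 0.24 (SD, n = 2) on array C. Array B was above array A at all 8 steps on this scale, and at 6 of 8 steps in the signals as deposited.

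PPARA, which switches on fatty acid oxidation, has 9 probe sets that did not move together. Its brightest, 223437_at, had signals from 91.66 (B8) to 310.0 (A1) with a median of 206.8, and 210771_at had 55.66 to 282.4 with a median of 127.0. Both lay above the median of the scan on all 18 scans, and their relative signals had SDs of 0.34 and 0.36, smaller than those of all but 2.5% and 3.56% of probe sets. 1558631_at, with signals of 6.959 to 80.1, lay below the median on all 18.

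The other 6 PPARA probe sets crossed the median of the scan. 223438_s_at had signals of 42.05 to 388.0 with a median of 164.2, and 1560981_a_at 17.72 to 232.2 with a median of 84.61. 226978_at ranged from 17.94 to 188.1 with a median of 52.49, and 206870_at from 3.602 (B4) to 258.4 (A1) with a median of 68.66, a 71.7-fold range from the same RNA. These 4 were each above the median of the scan on some scans and below it on others, 206870_at on 9 of 18. 237142_at (7.797 to 240.7) and 244689_at (8.313 to 336.6) had 30.9-fold and 40.5-fold ranges, and for both the highest signal was on scan A1, before any stringent wash. Over the 18 scans the relative signals of the 36 pairs of PPARA probe sets had Pearson correlations of -0.72 to 0.37 with a median of 0.02, and -0.46 to 0.66 with a median of 0.26 on the signals as deposited. Scans share arrays and stainings, and the values are descriptions.

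PPARD, a broadly expressed receptor of fatty acid use, was steadiest in 37152_at. It had signals of 460.6 on A1 and 535.3 to 596.8 on the other 7 scans of array A, 490.5 to 707.0 on array B, and 684.9 and 680.5 on array C. This is a 1.54-fold range, and the SD of its log2 signals as deposited, 0.17, was smaller than that of all but 0.999% of probe sets. In relative signals it spread more, with an SD of 0.53, and stood at 2.45 ± 0.32 (SD, n = 8) on array A and 3.30 ± 0.14 (SD, n = 8) on array B, without overlap of the 2 arrays. Of the other PPARD probe sets, 208044_s_at had 63.79 to 354.3, 242218_at 98.13 to 260.8 and 210636_at 10.94 to 237.5. The first 2 lay above the median on all 18 scans and 210636_at on 6 of 18. The 6 pairs of PPARD probe sets had correlations of -0.63 to 0.79 in relative signals and -0.31 to 0.70 as deposited, and the highest as deposited was that of 208044_s_at and 210636_at.

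RXRA, the RXR of liver, skin and many epithelia, has 2 probe sets. 202449_s_at had signals of 355.1 (B4) to 676.6 (B5) with a median of 475.0, a 1.91-fold range. 202426_s_at had 52.11 on scan A1 and 136.2 to 247.1 on the other 7 scans of array A, 163.3 to 208.9 on array B and 143.8 and 181.6 on array C. The value on A1 is 4.74-fold below the highest, which was on scan A2 of the same array, and it is the only one of its 18 that lay below the median of the scan. The 2 probe sets had a correlation of 0.73 in relative signals and of 0.11 as deposited.

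RXRB, the RXR found in most tissues, had its brightest signals in 209148_at, from 185.3 (B7) to 394.0 (A1). Its relative signals had the smallest SD of the 20 receptor probe sets, 0.25, which is smaller than that of all but 0.417% of probe sets. 215098_at had 11.16 to 133.9 and 215099_s_at 7.759 to 57.83. 215099_s_at lay above the median of the scan on 2 of 18 scans. For it array A gave 37.21, 35.61, 16.46 and 30.07 in the first series and 10.81, 9.079, 8.451 and 8.093 in the second. On array B it had 22.71, 7.759, 17.87 and 41.74 and then 49.17, 19.82, 28.91 and 57.83. The 2 series of array A did not overlap, in the direction opposite to that of array B, where each scan of the second series was above its partner of the first.

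RXRG, the RXR of muscle and brain, is measured by 205954_at alone and was below the median on all 18 scans. Array A gave 38.35, 19.74, 14.16 and 16.43 and, after the second staining, 42.23, 24.38, 25.91 and 46.98. Array B gave 13.99, 6.996, 6.720 and 6.489 and then 8.694, 6.663, 5.103 and 5.406, and array C 10.49 and 6.564. Every signal of array A was above every signal of arrays B and C. In relative signals array A stood at -1.92 ± 0.58 (SD, n = 8) and array B at -3.02 ± 0.37 (SD, n = 8), and the 2 ranges overlapped.

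Which array was the brighter depended on the scale. In relative signals 3 of 20 receptor probe sets had array B wholly above array A over 8 scans each (PPARG, PPARD 37152_at and RXRA 202426_s_at), beside 16.9% of all probe sets, and 0 had array A wholly above array B, beside 2.64%. In the signals as deposited 0 had array B wholly above, beside 2.35%, and 3 had array A wholly above (PPARD 208044_s_at, RXRB 209148_at and RXRG), beside 10.4%. The 2 sets of 3 share no probe set. The arrays also differ in their cycles before staining, and array and early washing cannot be told apart.

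The spread of the receptors over the scans was set beside that of all probe sets. The SD of log2 signals as deposited had a median of 0.77 over the 20 receptor probe sets and of 0.94 over all, and 11 of 20 were below the latter. In relative signals the medians were 0.78 and 0.88, and 13 of 20 were below. By mean log2 signal 12 of 20 were above the median of all probe sets. The 9 with a mean under 6 had SDs of 0.96 to 1.54 as deposited, and the other 11 had 0.17 to 0.85.

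**Figure D2:**
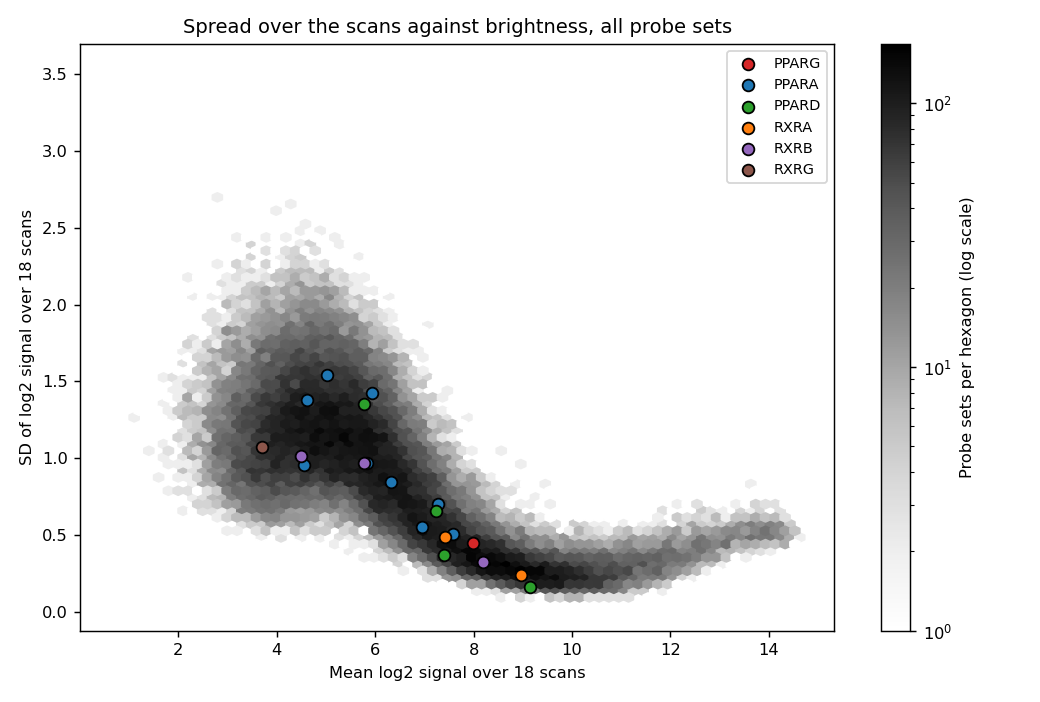
SD of the log2 signals as deposited (vertical axis) against their mean (horizontal axis) over 18 scans, with all 54675 probe sets as shaded hexagons and the 20 receptor probe sets as points coloured by gene. PPARD 37152_at lies lowest with an SD of 0.17, and PPARA 244689_at highest with 1.54.

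The study asked how washing after hybridization changes the signal. In the first series, from 0 to 17 additional cycles, PPARG went from 265.7 to 238.5 on array A and from 255.0 to 256.1 on array B, and RXRG from 38.35 to 16.43 and from 13.99 to 6.489. The median of the scan fell over the same cycles, and the relative signal of PPARG changed by 0.50 on A and 0.26 on B, while that of RXRG changed by -0.56 and -0.86. In all, 6 of 20 receptor probe sets had a higher relative signal on both arrays, 8 a lower one on both, and 6 moved in opposite directions. The shares over all probe sets were not counted, so these counts describe the receptors without a comparison.

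**Figure D3:**
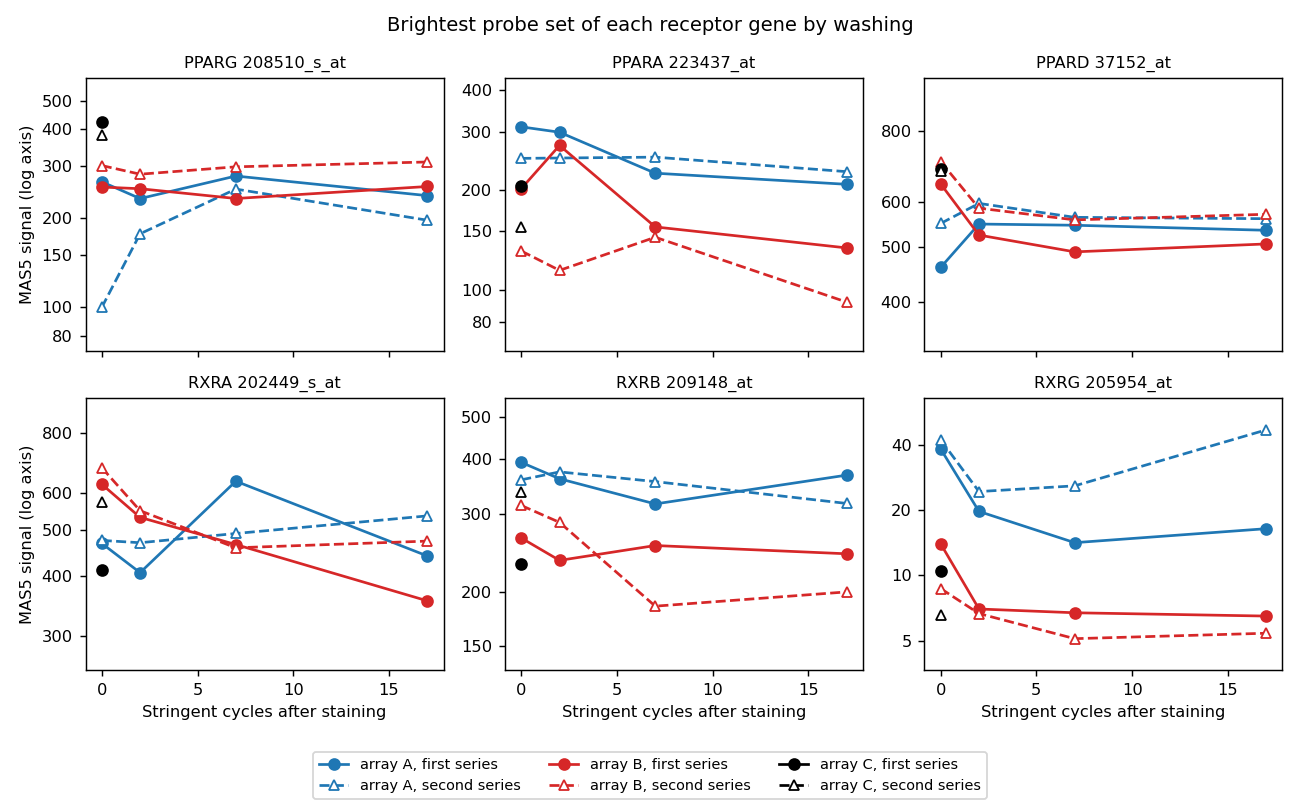
MAS5 signal as deposited (vertical log axis) of the brightest probe set of each receptor gene against the stringent cycles after staining (horizontal axis), with 1 panel per gene, colours for arrays A, B and C, filled circles and solid lines for the first and open triangles and dashed lines for the second series. The RXRG signals of array A (14.16 to 46.98) lie above those of array B (5.103 to 13.99), and PPARG has its highest values on array C (425.0 and 384.1).

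None of the 20 receptor probe sets was called (0 higher, 0 lower) in the first series by limma at an adjusted p threshold of 0.05, in a fit of the steps that kept the arrays as blocks. The same test called 0% of all 54675 probe sets higher and 0% lower. Unadjusted limma p-values were under 0.05 for 0 receptor probe sets higher and 3 lower, beside 6.14% and 6.21% of all, and limma with trended, robust moderation called 1867 probe sets higher and 113 lower, of which 0 were receptors. Fitted changes ran from -2.73 to 1.21 with a median of 0.07, beside 0.01 over all probe sets, and 11 of 20 were above 0, beside 50.4% of all.

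The 3 probe sets lower at an unadjusted p under 0.05 all belong to PPARA. 237142_at went from 240.7 to 20.32 on array A and from 99.9 to 14.33 on array B. Its relative signal changed by -2.73 (SE 0.758, 95% interval -4.60 to -0.86, limma adjusted p = 0.306). On array A it had changed by -2.86 after the first 2 cycles and by -2.91 after 17, and on array B by -0.30 and -2.55. 206870_at went from 258.4 to 61.4 and from 46.05 to 3.602, a change of -2.42 (SE 0.747, 95% interval -4.26 to -0.58, limma adjusted p = 0.33) that became -1.29 without scan B4. 223438_s_at went from 388.0 to 159.1 and from 185.7 to 42.05, a change of -1.26 (SE 0.492, 95% interval -2.47 to -0.04, limma adjusted p = 0.395) that became -0.62 without scan B4 and -1.90 without scan A4. The brightest PPARA probe set, 223437_at, had a fitted change of -0.13 with a 95% interval of -1.11 to 0.85, and differences between probe sets of the gene were not tested.

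For the brightest probe sets of the other receptors the 95% intervals held 0. The fitted change was 0.38 for PPARG (SE 0.392, 95% interval -0.59 to 1.35), 0.39 for PPARD 37152_at (95% interval -0.71 to 1.48) and 0.35 for RXRB 209148_at (95% interval -0.59 to 1.29). RXRA 202449_s_at had 0.01 with a 95% interval of -1.19 to 1.20, and moved by 0.57 on A but -0.56 on B. RXRG had -0.71 (SE 0.378, 95% interval -1.64 to 0.22). These intervals hold changes of over 1 log2 unit in at least 1 direction. In the signals as deposited, where the median of all probe sets changed by -0.45, the changes of PPARG, PPARD 37152_at, RXRA 202449_s_at and RXRB 209148_at turned to -0.08, -0.07, -0.45 and -0.11.

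In the second series the limma fit again called 0 of 20 receptor probe sets higher and 0 lower, beside 0% and 0% of all. The unadjusted p of 1 was under 0.05 in the higher direction and of 0 in the lower, beside 7.11% and 5.02%, and the trended, robust fit called 2384 and 93 probe sets with 0 receptors among them. The 1 was PPARA 206870_at, which had been lower in the first series. Its signals were 108.9, 95.15, 111.6 and 136.8 on A5 to A8 and 38.93, 106.1, 73.59 and 108.1 on B5 to B8, a change of 1.20 (SE 0.393, limma adjusted p = 0.391). Without scan B5 this change was 0.64, and anchored on the brightest probe sets it was 0.01. PPARG had a change of 0.81 (95% interval -0.21 to 1.83), with 1.32 on A, where its first scan was the lowest of all, and 0.29 on B. In all, 3 of 20 had a higher relative signal on both arrays, 2 a lower one on both, and 15 were opposed. The shares over all probe sets were not counted here either, and the counts are not a trait of the receptors.

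Whether washing acted differently in the 2 series was tested as an interaction of series and step in 16 scans. Array was a block with the same value in both series. A difference between arrays A and B that changed after re-staining, as for PPARG and RXRG below, therefore stayed in the error and can widen the SEs. A block by array and series was not fitted. Again 0 of 20 were called by limma in either direction, beside 0% and 0% of all. Unadjusted p-values under 0.05 were found for 2 in the higher and 0 in the lower direction, beside 2.64% and 1.89%, and the trended, robust fit called 0 as well. They were PPARA 206870_at, with a difference of 3.62 (SE 1.229, limma adjusted p = 0.993), and PPARA 237142_at, with 3.37 (SE 1.386, limma adjusted p = 0.993). For 206870_at the lowest of its signals, 3.602 on scan B4, is the last of the first series. For 237142_at the second series opened at 36.94 on array A and 9.420 on array B, where the first had opened at 240.7 and 99.9, and it ended at 9.574 and 58.97. The lowest and highest fitted differences with 1 scan left out were 2.11 (without B4) and 5.12 for 206870_at and 1.97 (without B8) and 4.78 for 237142_at.

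**Figure D4:**
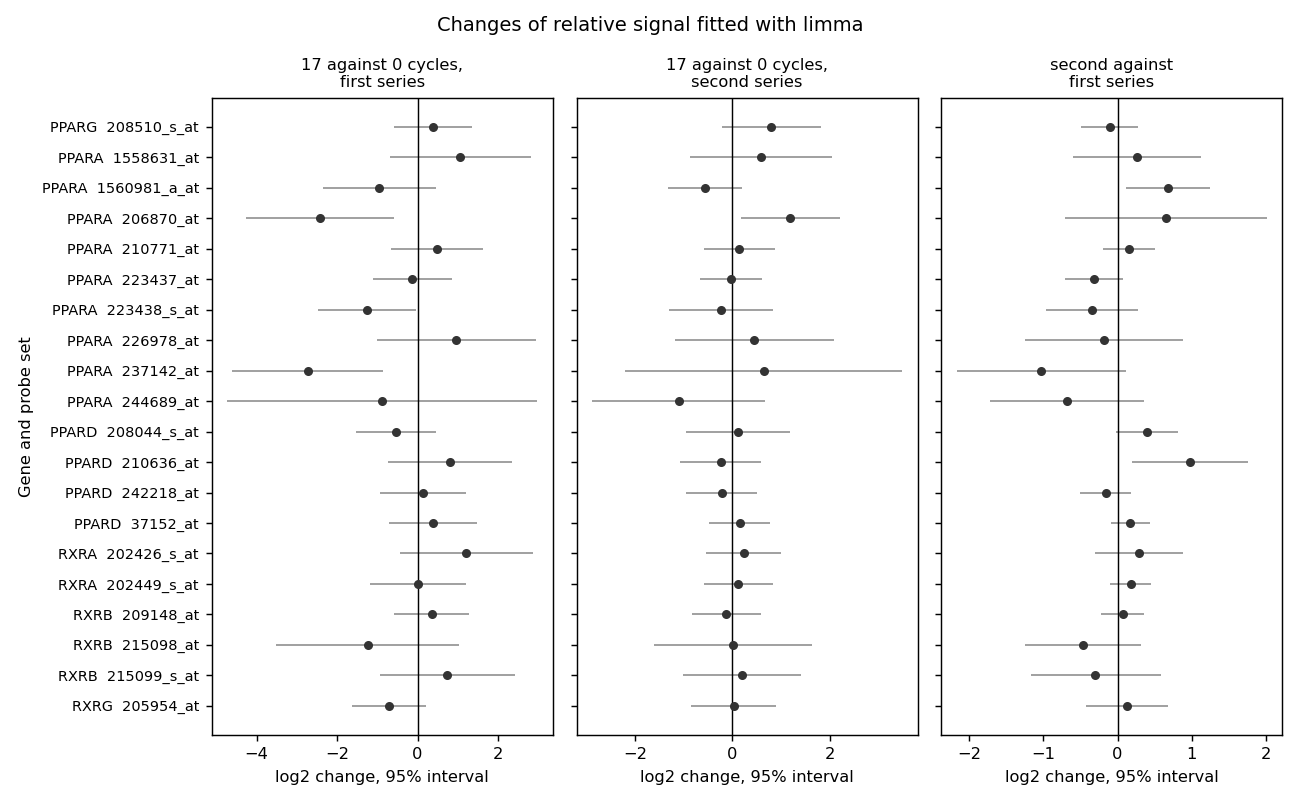
Fitted log2 changes of relative signal (horizontal axis) with 95% intervals from limma for the 20 receptor probe sets (vertical axis), with panels for 17 against 0 additional cycles in the first and second series and for the second against the first series at the same step. In the first panel the intervals of PPARA 237142_at (-4.60 to -0.86), 206870_at (-4.26 to -0.58) and 223438_s_at (-2.47 to -0.04) lie below 0, and none of the 20 passed the adjusted threshold in any panel.

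Re-staining, which labels the array anew, was tested on 9 pairs of scans of the same array and step, second against first series. The second scan of each pair also followed more total cycles, such as 17 against 0 for A5 and A1. For B5 and B1 the totals were 21 against 2, and for C2 and C1 12 against 6. Re-staining and the added washing cannot be told apart in these pairs. No receptor probe set (0 of 20) was called higher and 0 lower by limma, where 254 of all probe sets (0.465%) were higher and 290 (0.53%) lower. Unadjusted p-values were under 0.05 for 2 receptor probe sets in the higher and 0 in the lower direction, beside 9.75% and 9.53% of all. Fitted changes ran from -1.03 to 0.98, with a median of 0.10 beside 0.02 over all, and 11 of 20 were above 0, beside 52.5%.

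The 2 probe sets were PPARD 210636_at and PPARA 1560981_a_at. 210636_at had signals of 121.2, 31.71, 79.96 and 237.5 on A1 to A4 and 163.4, 152.2, 154.0 and 158.0 on A5 to A8. On array B it had 36.67, 13.36, 10.94 and 30.38, then 64.03, 59.19, 52.18 and 31.52, and on array C 20.51 and 21.33. The second scan was higher in 7 of 9 pairs in relative signal and 8 of 9 as deposited, with a fitted change of 0.98 (SE 0.349, 95% interval 0.20 to 1.75, limma adjusted p = 0.172). 1560981_a_at was higher in 8 of 9 pairs, by up to 2.43 in the pair A3 and A7, where its signal was 17.72 and then 93.29, with a fitted change of 0.68 (SE 0.252, 95% interval 0.12 to 1.24, limma adjusted p = 0.185) that became 0.41 without array A.

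The narrowest intervals for re-staining among the 20 were those of 3 bright probe sets. PPARD 37152_at was higher in 8 of 9 pairs, with a change of 0.17 (95% interval -0.09 to 0.44), RXRA 202449_s_at in 8 of 9, with 0.18 (95% interval -0.10 to 0.45), and RXRB 209148_at in 6 of 9, with 0.07 (95% interval -0.22 to 0.36). These intervals take the 9 pairs of 3 arrays as separate. With the array as the unit the changes were 0.08 (SE 0.27), 0.20 (SE 0.25) and 0.14 (SE 0.26). PPARG had -0.10 (95% interval -0.49 to 0.28) and RXRG 0.13 (95% interval -0.42 to 0.68), and in both the mean is over arrays that moved apart.

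In the second series PPARG had a lower relative signal in all 4 pairs of array A (-1.13, -0.20, -0.12 and -0.31). It had a higher one in all 4 of array B (0.25, 0.17, 0.47 and 0.29). RXRB 215099_s_at did the same, with -1.50, -1.78, -0.93 and -1.93 on A and 1.13, 1.36, 0.81 and 0.48 on B. RXRG went the other way, with 0.43, 0.50, 0.90 and 1.48 on A and -0.67, -0.07, -0.29 and -0.25 on B, and so did PPARA 1558631_at. In all 2 of 20 were lower on array A and higher on array B in every pair, beside 2.05% of all probe sets, and 2 were higher on A and lower on B, beside 2.33%. In the signals as deposited these counts were 2, beside 2.62%, and 1 (RXRG), beside 1.92%. None of the 20 moved in 1 direction in all 9 pairs (0 higher, 0 lower), beside 1.80% and 1.69% of all. The difference between the arrays has 1 array on each side and was not tested.

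**Figure D5:**
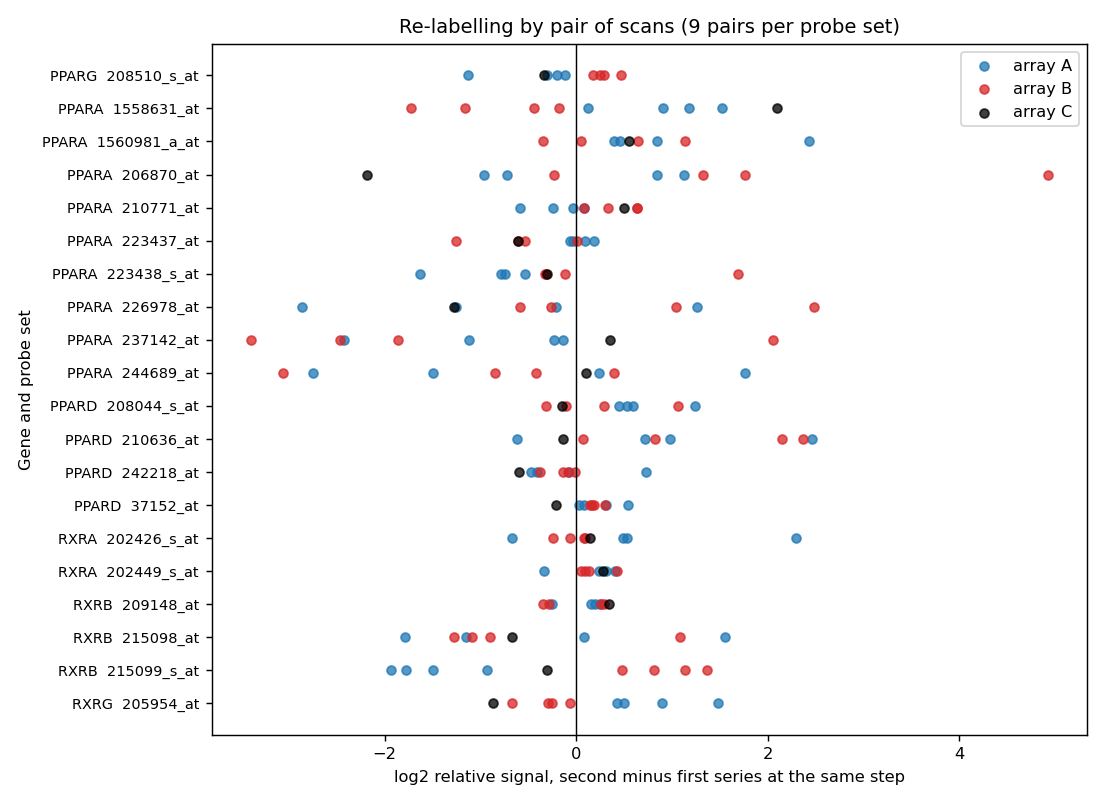
Log2 relative signal of the second minus the first series (horizontal axis) in 9 pairs of scans for each receptor probe set (vertical axis), as points coloured by array A, B or C. For PPARG and RXRB 215099_s_at the 4 points of array A lie left and the 4 of array B right of 0, and for RXRG and PPARA 1558631_at the reverse.

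A further scale asks how much of a signal was left if the brightest signals had lost nothing. With the mean log2 signal of the top 100 probe sets of scan C1 held equal in all scans, limma called 13 of 20 receptor probe sets lower and 0 higher over the first series of washing, beside 54.6% and 0.0128% of all probe sets. In the second series 10 were lower and 0 higher, beside 42.8% and 0.0366%, and after re-staining 5 were higher and 0 lower, beside 20.1% and 0.995%. PPARG had a change of -1.43 (SE 0.269, limma adjusted p = 0.0181) over the first washing and RXRG one of -2.52 (SE 0.277, limma adjusted p = 0.0161). On this scale the median of all probe sets changed by -1.80 over the first washing, -1.13 over the second and 0.40 after re-staining. The paper reports that a small fraction of probes reached the upper limit of the scanner in the second series, but not in the first. The anchor is made of the brightest probe sets, and how far such a limit moved the anchored changes was not tested.

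On this scale a median of 28.5% of the signal of the receptor probe sets was left on A and of 23.9% on B after 17 cycles of the first series, beside 25.2% and 32.8% over all probe sets. PPARG kept 34.6% and 39.7%, PPARD 37152_at 44.8% and 31.0%, and RXRB 209148_at 36.1% and 36.4%. PPARA 237142_at kept 3.25% and 5.67% and PPARA 206870_at 9.16% and 3.09%. The highest value was 137.0%, for PPARA 226978_at on array A, which rose from 44.82 to 159.1 there and had 22.4% left on array B. Within the same decile of signal on scan C1, 9 of 20 receptor probe sets kept more than the median on A and 7 of 20 on B. In the second series medians of 51.6% and 43.2% were left, beside 47.7% and 44.0% over all, and 10 and 11 of 20 were above the median of their decile.

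For the brightest probe set of each gene, the 3 probe sets of other genes with the highest correlation of relative signals over 18 scans were found. PPARG was most like DDA1 (r = 0.966), TMEM216 (0.965) and MIS18A (0.962), and PPARD like DERA (0.990), SDF4 (0.988) and SAMM50 (0.988). RXRA was most like GBP1 (0.972), CNEP1R1 (0.962) and DUSP6 (0.961), and PPARA 223437_at like TRMT61A (0.830), KDM5B (0.822) and SLC25A38 (0.807). RXRB was most like AGRN (0.863), FBXO42 (0.858) and ZNF777 (0.857), and RXRG like COL4A4 (0.892), FCGR1A (0.889) and LOC339260 (0.875). The points share arrays, stainings and the median that was subtracted. Without that subtraction r was, in the order named, 0.87, 0.842 and 0.438 for PPARG and 0.909, 0.779 and 0.851 for PPARD. It was 0.851, 0.72 and 0.764 for RXRA and 0.917, 0.9 and 0.848 for PPARA. For RXRB it was 0.506, 0.034 and 0.346, and for RXRG 0.932, 0.947 and 0.933. The scans differ in washing and staining and not in RNA.

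Genes that work with the receptors were followed through the same fits, each by its brightest probe set. Of 22 measured target genes of fatty acid handling, 10 coregulators, 10 partners of RXR and 12 genes of retinoid and ligand handling, limma called 0 in either direction in the washing, interaction and re-staining fits. The median change of the targets was 0.35 over the first washing, 0.07 over the second and -0.08 after re-staining, beside 0.19, 0.15 and 0.04 over all genes. In the same order it was 0.15, 0.06 and 0.13 for the coregulators, -0.01, -0.11 and 0.18 for the partners of RXR and 0.04, -0.05 and 0.27 for ligand handling. At an unadjusted p under 0.05 the first washing had 2 targets and 1 coregulator higher and 1 target lower, beside 6.14% and 6.21% of all probe sets. The second had 1 target, 2 coregulators and 1 gene of ligand handling higher, and 1 coregulator, 1 partner and 1 gene of ligand handling lower, beside 7.11% and 5.02%. Re-staining had 1 target, 1 coregulator, 1 partner and 2 genes of ligand handling higher, and 2 targets and 3 genes of ligand handling lower, beside 9.75% and 9.53%. The interaction had 0 in these 4 lists. These shares are over all probe sets, whereas each list gene stands by its brightest. In the first washing, a fit of the brighter 27337 probe sets had unadjusted p under 0.05 for 3969 higher and 1242 lower. The marker lists of thyroid, epithelial, fat, liver, myeloid and fibroblast cells had 0 called in each fit as well.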

How the data were processed

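The authors summarised perfect match and mismatch intensities with MAS5 (version not given in the sources used here) and deposited 1 linear signal per probe set and scan, scaled per scan. Signals carry no counts, and signal over background was not measured, so that the 3 arrays and 1 RNA sample limit the precision. No 2 scans were identical (0). Log2 signals, without offset or filter, were centred on the median of each scan and fitted in R 4.3.3 with limma 3.58.1, with Benjamini-Hochberg adjustment over all 54675 probe sets and a threshold of 0.05. Washing was tested as 17 against 0 additional cycles in 8 scans per series, with array as a block since the same array was scanned repeatedly, and re-staining over 18 scans, blocked by the 9 pairs that share array and step. The 8 scans of arrays A or B are repeated measurements of 1 hybridization. Fits were tested on simulated data. Descriptions used Python 3.11.15, numpy 2.4.6, pandas 2.3.3 and matplotlib 3.10.9. All probe sets with 1 receptor symbol are named, the brightest by mean log2 signal stands for a gene, and list genes were to be named only when called, except markers. Members and lists were chosen with earlier results of these data known. Alternatives were signals as deposited, quantile normalization, anchoring on 100 probe sets, an offset of 16, trended robust moderation, the brighter 27337 probe sets, no replicate block, first and last scans only, the array as the unit and leaving out scans, pairs or arrays. Symbols came from the platform annotation, with 1 symbol for 41097 probe sets, several for 1801 and none for 11777.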

Additional observations from a re-analysis of the deposited data

Results flagged for a closer look

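Among the 9 pairs of scans that measure re-staining, 4 of the 20 receptor probe sets had 1 pair far from the other 8, by Dixon's test of the gap against the whole range. Among all probe sets 8.75% had such a pair. Chance gives about 1 in 20 for independent values, and 8 of the 9 pairs come from arrays A and B. RXRA 202426_s_at had 2.29 in the pair A1 and A5, where its signal was 52.11 and then 209.5, and -0.67 to 0.53 in the others. PPARD 242218_at had 0.73 in the same pair. PPARA 223438_s_at had 1.69 in the pair B4 and B8, with signals of 42.05 and 134.9, and RXRA 202449_s_at had -0.34 in the pair A3 and A7, with 633.8 and 492.0. What sets these pairs apart was not tested.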

How the results depend on the processing

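No receptor probe set was called in washing, its difference between series or re-staining under any alternative other than anchoring, which called 13, 10 and 5 of 20 in the first washing, second washing and re-staining. Of the fitted changes of single probe sets, 20 were counted under the alternatives. They were those of the brightest probe set of each gene in the first washing and re-staining, and those at an unadjusted limma p under 0.05. The second kind was chosen by its p-value, so the counts do not stand for all receptor fits. Among their values under alternatives, 275 kept their direction and side of the threshold and 21 changed sign. Anchoring took 13 past the threshold, 9 in the same direction and 4 with a turned sign. Over all probe sets the first washing had 29877 calls when anchored, 1980 with trend and robust moderation and 89 from first and last scans only, against 0. The second had 23406 and 2477, against 0. Re-staining, with 544 calls, had 11521 when anchored, 948 with an offset of 16, 1009 with trend and robust moderation, 257 among the brighter probe sets, 327 with no replicate block, 0 with the array as the unit, and 0 to 614 with an array or pair left out (0 without array B, 78 without array A and 53 to 343 without 1 pair of arrays A or B). Without the block 0 receptor probe sets were called in each fit.

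For the first washing, signs turned for PPARG (-0.08 as deposited, -1.43 anchored), PPARD 37152_at (-0.07, -1.42), RXRA 202449_s_at (-0.45, -1.81, with -0.23 by quantile normalization and -0.05 with the offset) and RXRB 209148_at (-0.11, -1.47). With a scan left out, PPARA 223437_at ran from -0.32 to 0.06, PPARD 37152_at from -0.09 to 0.87 and RXRA 202449_s_at from -0.45 to 0.46. For re-staining, anchoring gave PPARG 0.28 and PPARA 223437_at 0.07, the array as the unit gave RXRG -0.12, and with a pair or array left out PPARG ran from -0.42 to 0.17 and RXRG from -0.43 to 0.49. The cause of these changes was not tested.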
